A study of Mus musculus with 6 samples.

Results

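The heat shock factor and chaperone genes examined here were 10 genes chosen by symbol and matched to NCBI Gene identifiers: Hsf1, Hspa1a, Hspa1b, Hspa8, Hsph1, Hsp90aa1, Hsp90ab1, Dnajb1, Hspb1 and Bag3. All 10 were among the 27179 genes counted, and 9 of them, all but Hspb1, were among the 14069 genes that passed the filter on low counts. mRNA was measured by stranded mRNA sequencing in 3 mouse embryonic fibroblast lines with 2 libraries each, 6 in all, made from independent RNA preparations. All 3 lines carry Cry1-/-, Cry2-/-, Per1-/-, Per2-/-, Nr1d1-/- and Nr1d2-/-, and CPN-/- is the parental line. CPN-/- CRY1 and CPN-/- CRY2 are lines grown from single colonies of these cells after viral delivery of Cry1 or Cry2 under a viral promoter, so that line and clone cannot be told apart. The cells were grown without a heat treatment in the protocol. The p-values below rest on a spread between RNA preparations that is shared over all 3 lines, and not on a spread between clones.

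Heat shock factor 1, encoded by Hsf1, is the main transcription factor of the heat shock response. It is held inactive in part by chaperones, and when unfolded proteins occupy these chaperones it forms trimers that bind heat shock elements, inverted repeats of the unit GAA, in the promoters of chaperone genes. HSP70 proteins fold client proteins in cycles of ATP hydrolysis that J-domain proteins start and nucleotide exchange factors end, and HSP90 proteins act on kinases, steroid receptors and other clients that are already partly folded. The constitutive members of these families are abundant in unstressed cells, while inducible members such as Hspa1a and Hspa1b are low until stress. CRY1 and CRY2 are repressors of the circadian clock that act on CLOCK and BMAL1 at E-boxes, and the comparisons ask what mRNA differed when either was put back.

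The sequences around the start sites of these genes were read from RefSeq (GRCm38.p6), which gave windows for 6 of the 10 members and none here for Hsf1, Hspa8, Hsp90aa1 and Hsp90ab1. Hspa1a and Hspa1b, the 2 inducible HSP70 genes, are shown because their start regions are nearly alike while their counts are far apart. Capitals mark a heat shock element of 2 units (GAANNTTC or TTCNNGAA), searched on both strands. The 250 bases upstream of Hspa1a lie at chr17:34972157-34972406 and those of Hspa1b at chr17:34959239-34959488, both on the minus strand.
Hspa1a: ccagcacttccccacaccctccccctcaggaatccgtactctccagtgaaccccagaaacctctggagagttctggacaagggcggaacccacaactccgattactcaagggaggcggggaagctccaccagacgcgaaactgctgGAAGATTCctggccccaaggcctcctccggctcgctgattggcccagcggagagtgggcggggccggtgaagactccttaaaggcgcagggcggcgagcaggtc
Hspa1b: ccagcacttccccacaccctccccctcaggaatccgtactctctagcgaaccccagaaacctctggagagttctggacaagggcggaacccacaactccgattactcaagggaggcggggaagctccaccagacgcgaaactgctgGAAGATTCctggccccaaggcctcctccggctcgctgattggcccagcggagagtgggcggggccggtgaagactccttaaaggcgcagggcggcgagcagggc
Over windows of 300 bases, 250 before and 50 after the start, the pair was 98.7% identical with 4 differences, which are C44T, T47C, T249G and C276T with the base of Hspa1a first and positions counted from the 5′ end of the window. The element itself was the same in both, at bases -104 to -97 from the start.

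Hspb1, the small heat shock protein HSP27 (mouse HSP25), is shown because it held 2 such elements and yet was almost without counts. Its upstream bases lie at chr5:135887669-135887918 on the plus strand.
Hspb1: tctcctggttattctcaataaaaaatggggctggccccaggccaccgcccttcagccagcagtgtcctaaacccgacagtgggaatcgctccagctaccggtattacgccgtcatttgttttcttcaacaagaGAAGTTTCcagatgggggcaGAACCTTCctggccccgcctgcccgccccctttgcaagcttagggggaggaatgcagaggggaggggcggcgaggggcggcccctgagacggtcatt
Hsph1, an HSP110 protein that serves HSP70 as a nucleotide exchange factor, is shown because it was the member with both a longer heat shock element of 3 units (GAA, TTC and GAA, or TTC, GAA and TTC, each 2 bases apart) and an E-box (CACGTG). Hsph1 had 2 windows with different starts. The element of 3 units lay after the start in both, at bases 37 to 49 and 16 to 28. Its E-box lay at bases 3 to 8 from 1 start and -19 to -14 from the other. The first line below is the element of 3 units with its surroundings, at chr5:149636279-149636308, and the second is the E-box, at chr5:149636313-149636342, both on the minus strand and with the motif in capitals.
Hsph1 heat shock element: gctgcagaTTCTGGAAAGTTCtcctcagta
Hsph1 E-box: ggaagtggCACGTGgaggcgccggtgagta
The element of 3 units was in 1 of the 6 members with a window, in 0.662% of all 27025 RefSeq genes with one and in 0.603% of all 32851 windows. The element of 2 units, which lies within it, was in 5 of the 6, all but Dnajb1, against 17% of all genes and 15.1% of all windows. The nearly alike windows of Hspa1a and Hspa1b are 2 of these 5, so the 5 are not independent of each other. In Bag3 it lay after the start, at bases 43 to 50. The E-box was in 1 of the 6, against 8.09% of all genes and 7.15% of all windows. These matches describe the letters of the windows only.

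The libraries held 25957409 to 36106949 counts, and the 10 genes together took 0.5242% to 0.6359% of them. Levels are given as CPM, the count scaled by the TMM-adjusted size of its library, and, to compare genes, as RPKM, which also divides by transcript length. As a check of the labels, Cry1 had 124.9 and 114.7 CPM in CPN-/-, 165.2 and 189.6 CPM in CPN-/- CRY1 and, lowest, 51 and 48.29 CPM in CPN-/- CRY2. The higher level of Cry1 in CPN-/- CRY1 was 1.48-fold (edgeR adjusted p = 0.013), with an adjusted p of up to 0.14 when 1 library was left out. Cry2 had 136 and 129 CPM in CPN-/-, 50.69 and 51.7 CPM in CPN-/- CRY1 and, highest, 349 and 350.9 CPM in CPN-/- CRY2. Each was highest in the line labelled with it, but the counts do not separate viral from endogenous transcripts, and all 6 knocked-out genes had counts in every library. Of the fibroblast markers, Thy1 had at most 7 counts and Lum at most 1 in any library, while the summed level of the list of 10 markers was 11200 to 14100 CPM in CPN-/-, 13600 to 13900 in CPN-/- CRY1 and 17400 to 17800 in CPN-/- CRY2. The sum is carried by a few genes, and in CPN-/- CRY1 against CPN-/- 2 of the 8 tested markers were called in opposite directions, Pdgfra at -1.31 and Pdgfrb at 0.88 (log2, edgeR adjusted p = 0.0015 and 0.01). The part of these marker differences in the results below was not tested. Epcam, an epithelial marker, had 0 counts, and the epithelial list summed to 0.083 to 0.593 CPM, the leukocyte list to 10.1 to 15.4 CPM and the endothelial list to 0.503 to 1.04 CPM. In these bulk samples fewer cells of a kind and less RNA per cell cannot be told apart. The 2 CPN-/- libraries differed from each other more than those of the other lines, at 65.7 against 4.94 and 9.87 for the chi-square divided by its degrees of freedom. Their difference, replicate 1 minus replicate 2, also rose with transcript length (Spearman's rho 0.68 over 13242 genes, which are no replicates).

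The levels per length of the 9 tested members spanned most of the range of the transcriptome. Hsp90ab1, the constitutive cytosolic HSP90, had 1250 ± 93.9 RPKM in CPN-/- (SD, n = 2) and ranked 26 of 13242 tested genes with a known length. Hspa8, the constitutive HSP70, ranked 80 with 564 ± 32.3 RPKM, and Hsp90aa1, the inducible form of HSP90, ranked 159 with 298 ± 0.319. Below these stood Hsph1 at 75.1 ± 1.77, Hsf1 at 62.6 ± 1.76, Dnajb1 at 35.4 ± 3.32 and Bag3 at 30.9 ± 1.86 RPKM. Dnajb1 and Bag3 differed by less than their SDs added together, and the other neighbours in this order were farther apart than that. Hspa1b had 7.53 ± 0.0816 RPKM, at percentile 44.3 of the same genes, and Hspa1a 0.213 ± 0.0464, at percentile 5.3.

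Hsf1 was the member with the clearest difference between lines. Hsf1 (NCBI Gene 15499, chr15:76477362-76501155) had 129.1 and 134.3 CPM in CPN-/-, 89.4 and 86.28 CPM in CPN-/- CRY1, with 132.5 and 135.6 CPM in CPN-/- CRY2. Both CPN-/- CRY1 libraries were below every other library, and the CPN-/- and CPN-/- CRY2 libraries overlapped. The log2 fold change was -0.58 (95% interval -0.80 to -0.37) in CPN-/- CRY1 against CPN-/-, and the quasi-likelihood test of edgeR gave an adjusted p = 0.0059. It was -0.61 (-0.82 to -0.40, adjusted p = 0.0062, same edgeR test) against CPN-/- CRY2. For CPN-/- CRY2 against CPN-/- it was 0.03 (-0.19 to 0.24, adjusted p = 0.87 by edgeR). The call against CPN-/- was lost without replicate 1 or replicate 2 of CPN-/- CRY1 (edgeR adjusted p = 0.077 and 0.094), with log2 fold changes of -0.61 and -0.56. The call against CPN-/- CRY2 was lost without either library of CPN-/- CRY1 (0.086 and 0.11) or of CPN-/- CRY2 (0.08 and 0.094), all adjusted p of the same edgeR test.

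**Figure D1:**
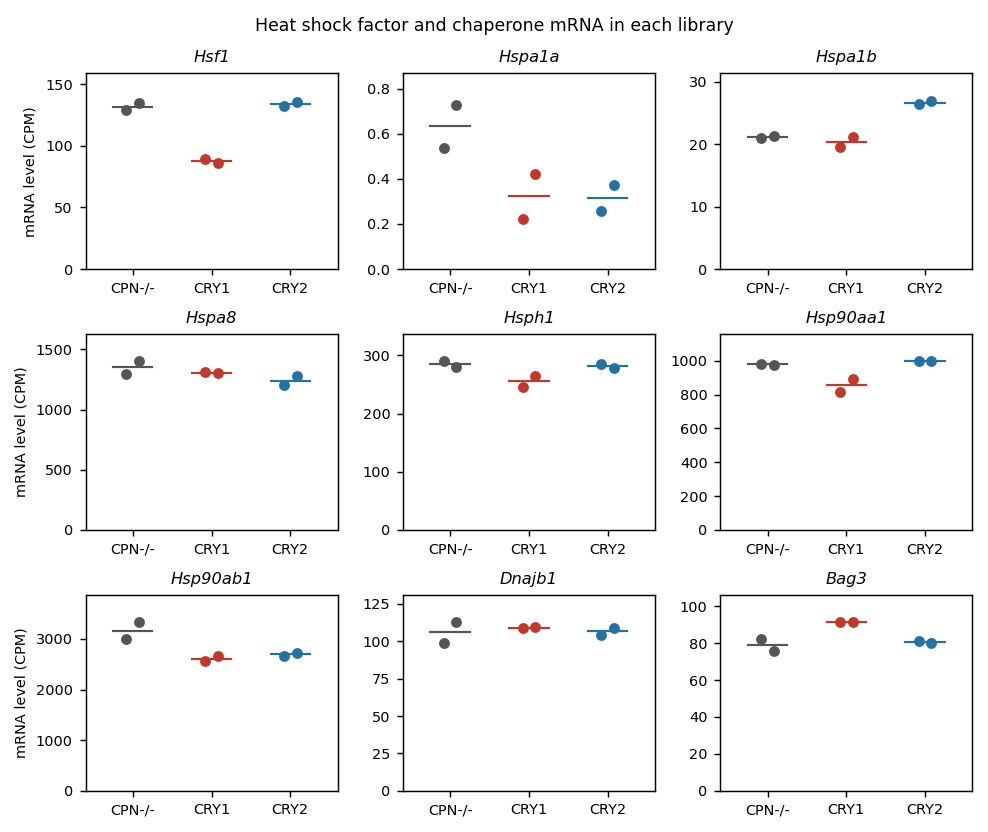
mRNA level in CPM of the 9 tested genes in each library. Points are libraries, bars the mean of the 2 libraries of a line, and each axis starts at 0. Hsf1 is lowest in both CPN-/- CRY1 libraries, Hspa1b is highest in both CPN-/- CRY2 libraries, and Hspa8 and Dnajb1 differ little between lines beside their level.

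The chromosome of Hsf1 moved with this difference. The 530 tested genes on chromosome 15 had a median of -0.36 for CPN-/- CRY1 against CPN-/-, as log2 fold change, and 45.8% of them were called. Hsf1 stood -0.22 from the median of the other 529 genes, and 32.7% of those were lower than Hsf1. The same distance for CPN-/- CRY2 was -0.02. When libraries were scaled within each chromosome, an alternative chosen after seeing the data, the log2 fold change of Hsf1 in CPN-/- CRY1 was -0.20 (edgeR adjusted p = 0.15) and the call was lost. Against CPN-/- CRY2 it was -0.16 (edgeR adjusted p = 0.31). The part of the chromosome in the level of Hsf1 was not tested beyond these values.

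The tested genes beside Hsf1 were mostly lower as well. Bop1, a ribosome biogenesis factor that starts 112 bases from Hsf1 on the other strand, stood at -0.94 on the log2 scale (edgeR adjusted p = 0.0014) for CPN-/- CRY1 against CPN-/-. Scx, the transcription factor scleraxis, had -1.08 (0.0091), and Dgat1, an enzyme of triglyceride synthesis, had -0.46 (0.025, edgeR adjusted p in each case). Fbxl6 had -0.67 (0.0094) and the riboflavin transporter Slc52a2 -0.65 (0.007), again as edgeR adjusted p. Of 18 alternatives, all kept the call of Bop1. The calls of Scx, Dgat1, Fbxl6 and Slc52a2 were lost in 2, 7, 3 and 3 of them. Their log2 fold changes came as near to 0 as -0.68, -0.07, -0.28 and -0.26. Mroh1 was the neighbour that did not share the direction, with 0.37 and an adjusted p of 0.08 by edgeR. None of the 6 was called by edgeR in CPN-/- CRY2 against CPN-/-, and their log2 fold changes lay between -0.08 and 0.14.

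**Figure D2:**
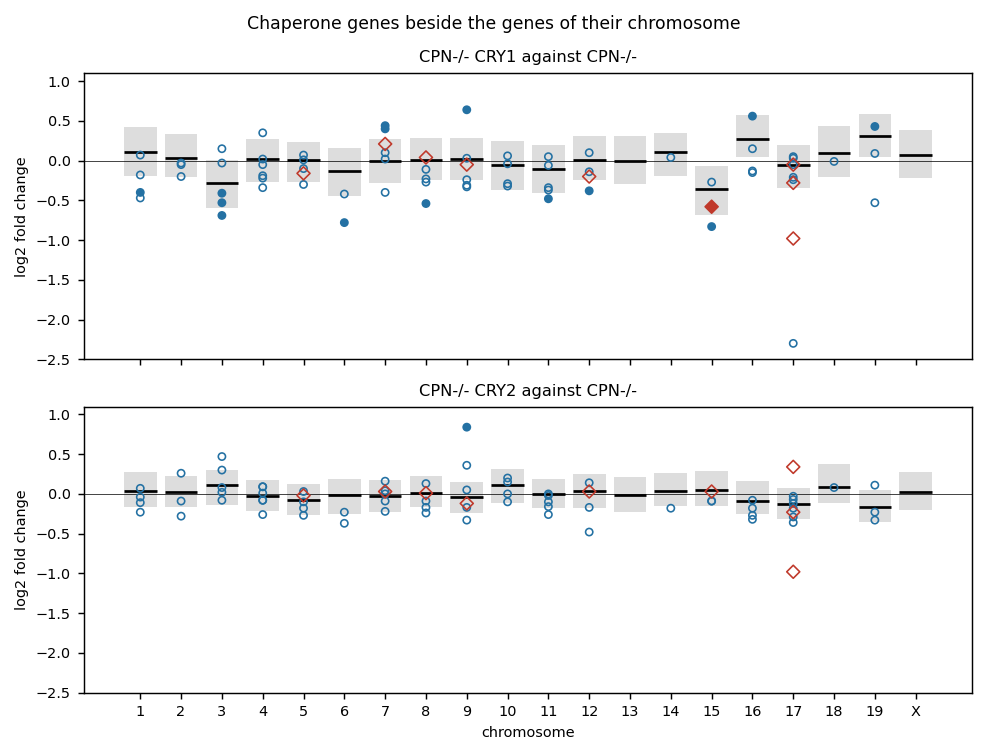
Log2 fold change against CPN-/- by chromosome, for CPN-/- CRY1 (top) and CPN-/- CRY2 (bottom). Grey bars span the quartiles and black lines the median of all tested genes of the chromosome, red diamonds are the 9 members, blue circles the other 67 chaperone genes, and filled marks are called. The CPN-/- CRY1 median was -0.36 on chromosome 15, -0.28 on chromosome 3, 0.27 on chromosome 16 and 0.31 on chromosome 19. The lowest circle, on chromosome 17, is Hsf2bp.

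The inducible HSP70 genes stood at different levels, Hspa1b near the middle of the tested genes and Hspa1a near the bottom. Hspa1b (15511, chr17:34956429-34959238) had 20.94 and 21.26 CPM in CPN-/-, 19.51 and 21.18 CPM in CPN-/- CRY1, with 26.38 and 26.87 CPM in CPN-/- CRY2. Both CPN-/- CRY2 libraries were above the other 4, which overlapped. The log2 fold change in CPN-/- CRY1 against CPN-/- CRY2 was -0.39 (95% interval -0.63 to -0.15), and the edgeR test gave an adjusted p = 0.043. Against CPN-/- it was 0.34 (0.09 to 0.58) in CPN-/- CRY2, with edgeR adjusted p = 0.11, and -0.05 (-0.29 to 0.19) in CPN-/- CRY1, with 0.72. The call between the CRY lines was lost with DESeq2 (adjusted p = 0.05), with the replicate number as a block (0.07 by edgeR), with genes of 1 count kept (0.059 by edgeR) and without any 1 of the 4 libraries of these lines. Without replicate 1 or 2 of CPN-/- CRY1 the adjusted p was 0.32 and 0.2, and without replicate 1 or 2 of CPN-/- CRY2 it was 0.24 and 0.28, by edgeR.

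Hspa1a (193740, chr17:34969359-34972156) had 17 and 19 counts in CPN-/-, 8 and 13 in CPN-/- CRY1, with 7 and 10 in CPN-/- CRY2. Both CPN-/- libraries were above the other 4, at 0.5345 and 0.7292 CPM against 0.2214 to 0.4217 CPM. The log2 fold change was -0.98 in each CRY line, with intervals of -1.96 to 0.00 and -2.01 to 0.04 and edgeR adjusted p of 0.12 and 0.22. With 1 library left out it ranged from -1.48 to -0.56 in CPN-/- CRY1, where it was called without replicate 1 of CPN-/- (edgeR adjusted p = 0.044), and from -1.27 to -0.74 in CPN-/- CRY2. Hspa1b had 29.2 to 103 times as many counts as Hspa1a. The 2 transcripts shared much of their sequence: 46% of the 150-base windows of Hspa1a and 40.5% of those of Hspa1b were also in another gene, and 564 bases of Hspa1a overlap Gm20481 on the opposite strand. How reads with several matches were counted is not given in the sources used here, so the split between the pair is uncertain. With both genes summed, the log2 fold change between the CRY lines was -0.38 (edgeR adjusted p = 0.047).

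The constitutive HSP70 and its partners differed little. Hspa8 (15481) had 1295 and 1405 CPM in CPN-/-, 1310 and 1306 in CPN-/- CRY1, with 1202 and 1279 in CPN-/- CRY2. The CPN-/- and CPN-/- CRY1 libraries overlapped, and both CPN-/- CRY2 libraries were the lowest. The log2 fold changes against CPN-/- were -0.05 (-0.29 to 0.20) and -0.12 (-0.37 to 0.12), with edgeR adjusted p of 0.76 and 0.48. Of the 150-base windows of Hspa8, 56% were in 1 or more of 6 near-identical genes, and 3 small nucleolar RNA genes lie within it, which makes its count uncertain.

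Dnajb1 (81489), the J-domain protein that stimulates the ATPase of HSP70, had 99.09 and 113.2 CPM in CPN-/-, 108.7 and 109.4 in CPN-/- CRY1, with 104.2 and 109.1 in CPN-/- CRY2. The 3 lines overlapped. The intervals of the log2 fold change were -0.20 to 0.28 in CPN-/- CRY1 and -0.23 to 0.25 in CPN-/- CRY2. Hsph1 (15505) had 290.3 and 280.7 CPM in CPN-/-, 245.2 and 264.9 in CPN-/- CRY1, with 285.2 and 278.5 in CPN-/- CRY2. Both CPN-/- CRY1 libraries were the lowest, with a log2 fold change of -0.16 (-0.39 to 0.06) and an edgeR adjusted p of 0.24. Bag3 (29810), a co-chaperone that links HSP70 to small heat shock proteins and to autophagy, had 82.46 and 75.72 CPM in CPN-/-, 91.5 and 91.28 in CPN-/- CRY1, with 81.42 and 80.16 in CPN-/- CRY2. Both CPN-/- CRY1 libraries were the highest, with a log2 fold change of 0.21 (-0.01 to 0.43) and an edgeR adjusted p of 0.14. With the length trend removed Hsph1 and Bag3 were called there, at -0.23 and 0.26 (edgeR adjusted p = 0.023 and 0.025). Between the CRY lines Hsph1 and Bag3 stood at -0.14 and 0.18 (edgeR adjusted p = 0.37 and 0.25). For each of them 15 of 18 alternatives left it uncalled there, and under the other 3 the adjusted p fell as low as 0.032 and 0.0076.

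The 2 cytosolic HSP90 genes, which with Hspa8 were the 3 most abundant members per length, were not called in any comparison of the main fit. Hsp90ab1 (15516) had 2993 and 3327 CPM in CPN-/-, 2558 and 2654 in CPN-/- CRY1, with 2656 and 2732 in CPN-/- CRY2. Both CPN-/- libraries were above the others, and the log2 fold changes were -0.28 (-0.54 to -0.02) and -0.23 (-0.49 to 0.03), with edgeR adjusted p of 0.1 and 0.24. Hsp90aa1 (15519) had 978.7 and 977.3 CPM in CPN-/-, 814.8 and 892.4 in CPN-/- CRY1, with 997.1 and 997.2 in CPN-/- CRY2. The CPN-/- CRY1 libraries were the lowest, with a log2 fold change of -0.20 (-0.43 to 0.04) and an edgeR adjusted p of 0.19. With the length trend removed Hsp90aa1 was called there, at -0.22 (edgeR adjusted p = 0.046). Against CPN-/- CRY2 it was at -0.22 (-0.46 to 0.01, edgeR adjusted p = 0.19). There 14 of 18 alternatives left it uncalled, and under the other 4 the adjusted p fell as low as 0.0035. Per length, Hsp90ab1 was 3.98 and 4.43 times Hsp90aa1 in CPN-/-, 4.09 and 3.87 times in CPN-/- CRY1 and 3.47 and 3.57 times in CPN-/- CRY2. The ratio was lowest in both CPN-/- CRY2 libraries. Of the windows of Hsp90aa1, 36.2% were also in 1 of 3 pseudogenes, and none of Hsp90ab1 was in another gene.

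Hspb1 (15507, chr5:135887919-135889563) had 0 counts in 5 libraries and 1 count in replicate 2 of CPN-/- CRY2. A count of 0 allows up to 3 counts, which is 0.0831 to 0.116 CPM in these libraries and covers counting error only. Near-identical sequence in Gm9817 and Hsp25-ps1 held 36.6% of its windows, and neither of those genes was matched to a row of the tables. The level of Hspb1 was therefore not detectable here, and no fold change is given.

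**Figure D3:**
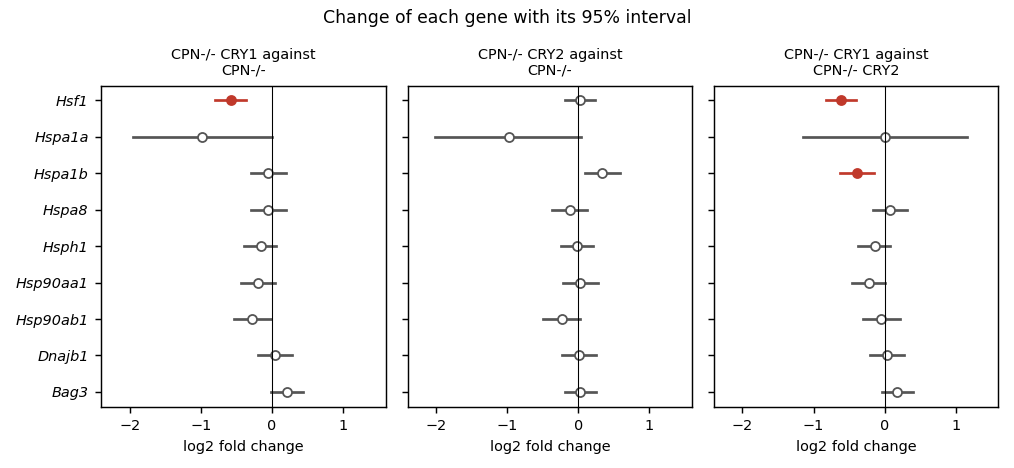
Log2 fold change (points) with its 95% interval (lines) for the 9 tested members in the 3 comparisons. Red filled points are called at an adjusted p under 0.05. Hsf1 is at -0.58 and -0.61 in the comparisons with CPN-/- CRY1 and at 0.03 in CPN-/- CRY2, and the widest intervals are those of Hspa1a.

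Of the 9 tested members, edgeR called 1 in CPN-/- CRY1 against CPN-/- (Hsf1, lower), where 24.3% of all tested genes were called and 13.1% were called lower. For CPN-/- CRY2 against CPN-/- edgeR called 0 of 9, against 6.66% of all genes (4.08% lower), and DESeq2 also called 0. Between the CRY lines edgeR called 2, Hsf1 and Hspa1b, both lower in CPN-/- CRY1, against 16.3% of all genes, 8.57% being lower. DESeq2 called 1 in each of the comparisons with CPN-/- CRY1. At an unadjusted p under 0.05 the members were 2, 1 and 2 of 9 by edgeR and the same numbers by DESeq2, against 40.3%, 24.4% and 30.8% of all genes by edgeR. The libraries of the lines did not overlap for 6, 5 and 7 of the 9 members, against 66.9%, 55.1% and 73.3% of all tested genes. The median log2 fold change of the members was -0.16, 0.01 and -0.05, and that of all tested genes was -0.01, -0.01 and 0. The first 2 comparisons share the CPN-/- libraries.

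Beyond the 10 members, 71 other genes of the chaperone network were listed by family, and 67 passed the filter. Against CPN-/-, 5 of these were higher in CPN-/- CRY1, 9 were lower and 53 were not called, a share called of 20.9%. In CPN-/- CRY2 1 was higher and none lower (1.49%), and in CPN-/- CRY1 against CPN-/- CRY2 3 were higher and 5 lower (11.9%). The medians of the log2 fold change were -0.14, -0.09 and -0.07. Each share of the whole list was below that of all genes given above. Single families lay on both sides of it, and their shares are given with them.

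Among the HSP70 and HSP110 genes, 2 of 9 were called in CPN-/- CRY1 (22.2%, against 24.3% of all genes). Hspa4l, an HSP110 protein, had a log2 fold change of -0.41 (edgeR adjusted p = 0.04), and Hspa13, a microsomal HSP70 protein, had 0.56 (0.025 by edgeR). Of the HSP90 co-chaperones, 5 of 17 were called there (29.4%, against 24.3% of all genes), 2 higher and 3 lower. Fkbp4, the immunophilin FKBP52 of steroid receptor complexes, had 325.2 and 396.5 CPM in CPN-/-, 209.1 and 210.8 in CPN-/- CRY1, with 273.2 and 286.1 in CPN-/- CRY2. The 3 lines did not overlap for Fkbp4, and its log2 fold change in CPN-/- CRY1 was -0.78 (edgeR adjusted p = 0.006) and in CPN-/- CRY2 -0.37 (0.13). Ppid, the immunophilin cyclophilin 40, had -0.53 (edgeR adjusted p = 0.014) and Cdc37l1, a relative of the kinase co-chaperone Cdc37, had 0.43 (0.024) in CPN-/- CRY1.

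Of 11 J-domain genes, 2 were called in CPN-/- CRY1 (18.2%, against 24.3% of all genes). Both were lower, Dnajc7 at -0.48 (edgeR adjusted p = 0.027) and Dnajb2 at -0.40 (0.044). Dnajb14 was called between the CRY lines only, at -0.50 (edgeR adjusted p = 0.042), with -0.03 and 0.47 (0.88 and 0.09) against CPN-/-. None of the 8 genes of other BAG proteins and HSP70 cofactors was called by edgeR in any comparison, with 2, 0 and 0 at an unadjusted p under 0.05. Of the heat shock factors and HSF1 partners, 3 of 5 were tested and edgeR called none, with 1, 0 and 2 at an unadjusted p under 0.05. Hsf2 stood on the log2 scale at -0.04 in CPN-/- CRY1 and 0.20 in CPN-/- CRY2 (edgeR adjusted p = 0.80 and 0.24). Hsf2bp, named after its values were seen because it lies farthest from 0, had 1 to 13 counts per library and -2.30 (-4.29 to -0.30, edgeR adjusted p = 0.088) in CPN-/- CRY1.

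The small heat shock proteins included the 1 gene called in both CRY lines against CPN-/-. Cryab, the chaperone alpha-B crystallin, had 39.68 and 46.4 CPM in CPN-/-, 69.98 and 64.16 in CPN-/- CRY1, with 71.39 and 82.38 in CPN-/- CRY2. All 4 libraries of the CRY lines were above both CPN-/- libraries, with log2 fold changes of 0.64 (edgeR adjusted p = 0.014) and 0.84 (0.011). Each call was lost without either library of the CRY line concerned, at adjusted p of 0.13 and 0.086 without replicate 1 and 2 of CPN-/- CRY1 and of 0.065 and 0.13 without those of CPN-/- CRY2. Hspb6, HSP20, had 45.08 and 45.98 CPM in CPN-/-, 61.37 and 62.54 in CPN-/- CRY1, with 43.83 and 47.47 in CPN-/- CRY2, and was called in CPN-/- CRY1 at 0.44 (edgeR adjusted p = 0.017). Of the 7 small heat shock protein genes, 5 were tested and 2, 1 and 1 were called in the 3 comparisons, all higher. These shares were 40%, 20% and 20%, against 24.3%, 6.66% and 16.3% of all genes. The calls were those of Cryab and Hspb6 alone. Hspb3 and Cryaa had 0 counts in every library. Of 15 other heat-induced genes, which include Fkbp4, Hspa4l and Cryab, 5 were called in CPN-/- CRY1 against CPN-/- (1 higher, 4 lower). In CPN-/- CRY2 1 was called and between the CRY lines 2. These shares were 33.3%, 6.67% and 13.3%, against the same 24.3%, 6.66% and 16.3% of all genes.

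The chaperonins form the ring that folds actin and tubulin in the cytosol and its relative in mitochondria. Of 10 genes, 2 were called in CPN-/- CRY1 (20%, against 24.3% of all genes), both subunits of the cytosolic ring and both lower. Cct5 had 709 and 1006 CPM in CPN-/-, 481 and 486.7 in CPN-/- CRY1, with 791.1 and 824.5 in CPN-/- CRY2, and its log2 fold change in CPN-/- CRY1 was -0.83 (edgeR adjusted p = 0.015). Cct3 had 472.1 and 585.5 CPM in CPN-/-, 325 and 332.2 in CPN-/- CRY1, with 486.8 and 512.7 in CPN-/- CRY2, with -0.69 (0.011 by edgeR). The value of Cct5 was -0.54 without replicate 2 of CPN-/-, and its call was lost without either CPN-/- CRY1 library (edgeR adjusted p = 0.12 for each). For both genes the CPN-/- CRY1 libraries were the lowest and the CPN-/- and CPN-/- CRY2 libraries overlapped.

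**Figure D4:**
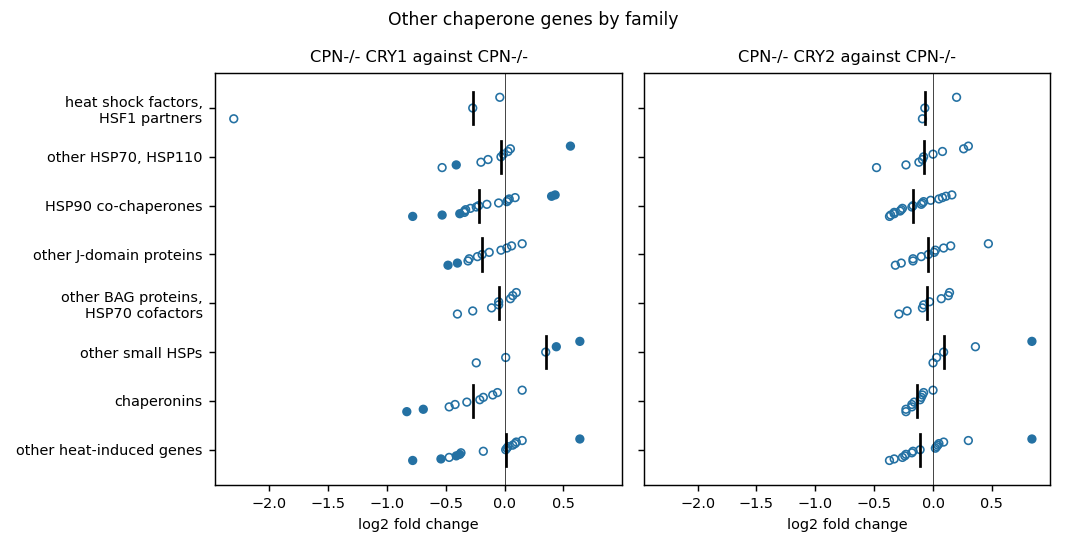
Log2 fold change of the other chaperone genes by family against CPN-/-, for CPN-/- CRY1 (left) and CPN-/- CRY2 (right). Each circle is a gene, filled where called, black lines are medians of the family, and a gene listed in 2 families is drawn in each. Called genes number 14 of 67 in CPN-/- CRY1, and in CPN-/- CRY2 only Cryab is, at 0.84. The point at -2.30 is Hsf2bp, with at most 13 counts.

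Several of the named genes lie, like Hsf1, on chromosomes whose tested genes were shifted as a group in CPN-/- CRY1. Cct5 lies on chromosome 15 with Hsf1, and Cct3, Hspa4l, Ppid and Dnajb14 lie on chromosome 3, Hspa13 on chromosome 16 and Cdc37l1 on chromosome 19. These 4 chromosomes, whose median log2 fold change in CPN-/- CRY1 was past 0.2 in size, were picked after seeing the data. A larger share called on them follows from that choice for all genes, so it is no result about the listed genes. Against CPN-/-, in CPN-/- CRY1, 6 of 14 listed genes on them were called (42.9%) and 8 of 53 elsewhere (15.1%), against 40% and 21.6% of all tested genes. Between the CRY lines the counts were 7 of 14 (50%) and 1 of 53 (1.89%), against 38.8% and 12.4% of all tested genes. Fkbp4, Cryab, Hspb6, Dnajc7 and Dnajb2 lie on other chromosomes. When libraries were scaled within each chromosome, 11, 1 and 2 of the 67 genes were called in the 3 comparisons. The same scaling called 2828, 895 and 1474 of all 14069 tested genes, against 3423, 937 and 2292 without it.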

How the data were processed

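mRNA was measured in 6 libraries. Paired reads were mapped to mm10 (RNA STAR) and assigned to genes (featureCounts) by the authors, who deposited raw counts for 27179 genes. The annotation, the strand setting and the treatment of reads with several matches are not given in the sources used here. Genes were filtered with filterByExpr (minimum count 10, minimum total 15) and fitted in R 4.3.3 with edgeR 4.0.16, TMM normalization and robust quasi-likelihood dispersions, with the line as the only term. Benjamini-Hochberg adjustment covered all 14069 tested genes, at 0.05. The steps were tested on simulated data. The alternatives were 3 normalizations, 2 filters, a replicate block, the 4 libraries of a comparison, DESeq2 1.42.0, a threshold of 0.01, removal of each library's length trend (loess span 0.5), Hspa1a and Hspa1b summed, each library left out, and scaling within chromosomes, the last chosen after seeing the data. Transcript lengths came from GENCODE, and near-identical sequence was searched with BLAST+ 2.17.0 (95% identity, 150 bases or more). Intervals cover 95%.

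The members and lists were chosen with earlier results of these data known. The genes named from each list were at most 3 with the largest change among those called and averaging 100 or more counts, those with at most 3 counts in every library, and up to 3 tested genes on each side of Hsf1. Hsf2, Hsf2bp, Hmox1 and Stip1 were named outside this rule, as were the immediate early genes, among them Egr1, Fos, Atf3 and Junb. The same holds for the cell type markers named singly, among them Pdgfra and Pdgfrb, and for Cry1 and Cry2, the check of the labels.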

Additional observations from a re-analysis of the deposited data

Results flagged for a closer look

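The direct comparison of CPN-/- CRY1 with CPN-/- CRY2 found 9 of the named chaperone genes at different levels in the CRY lines, so that their changes against the shared CPN-/- libraries differed. Apart from the members, these genes were named because edgeR called them in a comparison. Their calls here are thus partly built in. Of those tested, 2 of 9 members and 8 of 67 other chaperone genes (11.9%) were called, against 16.3% of all genes. Stip1, left unnamed by the limit of 3 genes per list, was also called, higher in CPN-/- CRY1 by 0.42 (edgeR adjusted p = 0.033). All p-values are adjusted, and come from the quasi-likelihood test of edgeR. Hsf1 was lower in CPN-/- CRY1 by a log2 fold change of -0.61 (0.0062), Hspa1b by -0.39 (0.043), Hspa4l by -0.71 (0.0077) and Ppid by -0.61 (0.011). Dnajb14 was lower by -0.50 (0.042), Cct5 by -0.74 (0.027) and Cct3 by -0.60 (0.021). Hspa13 was higher in CPN-/- CRY1 by 0.64 (0.021) and Hspb6 by 0.44 (0.023). Of these 9, Hspa1b and Hspb6 do not lie on chromosomes 3, 15, 16 or 19. Of the other genes named, Bop1 was lower in CPN-/- CRY1 by -0.86 (0.0023), Scx by -1.18 (0.0079), Dgat1 by -0.59 (0.013), Fbxl6 by -0.73 (0.0083) and Slc52a2 by -0.66 (0.0081), all neighbours of Hsf1. Cry1 was higher by 1.84 (0.00032), Cry2 was lower by -2.77 (8.6e-05), Junb was higher by 0.72 (0.042), and Pdgfra was lower by -1.42 (0.0013).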

How the results depend on the processing

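With 2 libraries per line, the calls rest on a spread shared across lines, and most counts moved with which libraries entered the fit. With a library left out, its lone partner is assumed to vary like the other lines. All p-values are adjusted p from edgeR unless DESeq2 is named. The number of all tested genes called moved too. In CPN-/- CRY1 against CPN-/- it was 3423 of 14069 in the main fit. It was 1807 with the 4 libraries alone, 1184 at 0.01, 5587 with the length trend removed and 2828 with scaling within chromosomes. For CPN-/- CRY2 these were 937, 474, 363, 2371 and 895, and between the CRY lines 2292, 6846, 854, 4609 and 1474. It also rose or fell with the library left out, so such moves were not particular to the listed genes. The cause of each move was not tested.

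The number of members called in CPN-/- CRY1 against CPN-/- was 4 with the length trend removed and 0 with scaling within chromosomes. Between CPN-/- CRY2 and CPN-/- it was 1 with the length trend removed, 1 with scaling within chromosomes and 0 to 3 with a library left out. In CPN-/- CRY1 against CPN-/- CRY2 it was 5 with the 4 libraries of the comparison alone. It was 1 there with genes of 1 count kept, the replicate block, DESeq2, a threshold of 0.01 or scaling within chromosomes. Of all genes, 2560 of 19741 were called there with genes of 1 count kept. The replicate block called 2188 of 14069 and DESeq2 2546 of 14069. In each comparison the number of members called also moved with the library left out, as did that of all tested genes.

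Of the other chaperone genes, the number called in CPN-/- CRY1 against CPN-/- was 4 with the 4 libraries alone, 1 at a threshold of 0.01, 25 with the length trend removed and 0 to 41 with a library left out, 0 without either CPN-/- CRY1 library and 41 without replicate 1 of CPN-/-. For CPN-/- CRY2 it was 2 with DESeq2, 0 at 0.01, 6 with the length trend removed and 0 to 43 with a library left out, 43 without replicate 1 of CPN-/-. Between the CRY lines it was 34 with the 4 libraries alone, 1 at 0.01, 23 with the length trend removed and 2 with scaling within chromosomes. In each comparison the number rose without a CPN-/- library and fell without a library of a CRY line compared. The number of all tested genes called did the same.

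The replicate numbers did not pair the libraries: the correlations of the replicate differences between lines were -0.13, 0.23 and -0.09. As a replicate block they removed the calls of 4 single genes (Hspa4l and Dnajb2 in CPN-/- CRY1 against CPN-/-, Hspa1b and Dnajb14 between the CRY lines) and added 0.

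Of 1563 values of single genes under alternatives, 42 changed sign, in none of these was the main value called, and 1 was called under the alternative (Cct5). For CPN-/- CRY1 against CPN-/-, the log2 fold change of Hspa1b was 0.01 and -0.11 without replicates 1 and 2 of CPN-/- CRY1, that of Hspa8 was 0.03 with the length trend removed and -0.10 to 0.02 with a library left out. Dnajb1 ranged from -0.05 to 0.15 with a library left out, and Dnajb14 was 0.09 without replicate 1 of CPN-/-. Scaling within chromosomes gave 0.24 for Dnajb14 there. In CPN-/- CRY2 against CPN-/-, it gave -0.03 for Hsf1, -0.01 for Hsp90aa1, 0.05 for Hsph1, -0.01 for Dnajb1, -0.05 for Ppid and -0.05 for Slc52a2, and Hsf1 minus its chromosome's median was -0.02. With upper-quartile normalization or library size alone, Dnajb1 and Slc52a2 had -0.01. With the length trend removed, Hspa4l had -0.08, Cdc37l1 -0.03, Cct5 0.05, Cct3 0.04, Mroh1 -0.01 and Slc52a2 -0.15. Without replicate 1 of CPN-/-, Hsph1 had 0.01, Dnajb1 -0.09 (0.11 without replicate 2), Hspa13 0.09, Scx -0.14 (0.41 without replicate 2), Fbxl6 -0.06 and Slc52a2 -0.05 (0.07 without replicate 2). Without replicate 2 of CPN-/-, Bag3 had -0.02, Dnajc7 0.06, Dnajb2 0.08, Cct5 0.20 (-0.32 without replicate 1, called in opposite directions at adjusted p = 0.049 and 0.00035), Cct3 0.09 and Mroh1 -0.01 (0.31 without replicate 1). Without replicate 2 of CPN-/- CRY2 Dnajb1 had -0.03, and without replicate 1 Slc52a2 had -0.04. Between the CRY lines, Hspa1a had -0.01 with upper-quartile normalization, -0.06 with scaling within chromosomes, -0.50 to 0.42 with a library left out and -0.23 without replicate 1 of CPN-/- CRY2, and Cdc37l1 had -0.17 with scaling within chromosomes.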

Other observations

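Immediate early genes, which respond to serum and handling, were listed as Fos, Fosb, Jun, Junb, Egr1, Ier2 and Atf3. Their summed level was 272 to 379 CPM in CPN-/-, 342 to 420 CPM in CPN-/- CRY1 and 282 to 354 CPM in CPN-/- CRY2, so that the sums overlapped, although single genes moved in both directions. Egr1, an early growth response factor, had 16.44 and 38.15 CPM in CPN-/-, 59.57 and 84.43 in CPN-/- CRY1, with 34.32 and 60.63 in CPN-/- CRY2. Both CPN-/- CRY1 libraries were above both CPN-/- libraries, with a log2 difference of 1.40 (0.39 to 2.42, edgeR adjusted p = 0.054) that was not called. Fos stood at 0.83 (-0.29 to 1.95, edgeR adjusted p = 0.23) in the same comparison. Atf3, a stress-induced transcription factor, was at 7.042 and 9.364 CPM in CPN-/-, 4.261 and 4.152 in CPN-/- CRY1, with 4.997 and 5.522 in CPN-/- CRY2. It was called lower in CPN-/- CRY1, at -0.96 on the log2 scale (edgeR adjusted p = 0.011). Junb, an AP-1 subunit, was called lower in CPN-/- CRY2 with -1.22 (edgeR adjusted p = 0.012). The heme oxygenase gene Hmox1, a heat-induced gene named after its values were seen, had a log2 fold change of -0.54 (edgeR adjusted p = 0.013) in CPN-/- CRY1.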
